A study of Rattus norvegicus with 15 samples.

Results

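In 29 genes every sham rat's normalised read count was at least 25% above that of every untreated rat with a ligated sciatic nerve. They came out of 10325 genes measured at a comparable level and 32883 rows with an Ensembl rat identifier. Without that margin, at a ratio of 1.0, 860 genes were kept, so separation of the 2 groups by itself was far more common. Levels are given as CPM, a gene's counts per 1000000 counts of its library. A gene was kept if its lowest sham library held 5 to 200 CPM and stood at least 25% above the highest untreated ligated library. The sham and untreated ligated libraries therefore chose the members, and the difference between those groups is described here without a test. The 9 libraries of treated rats played no part in the choice. The members are 0.281% of the genes in that window, and the mirrored rule, with every ligated library higher, kept 153 genes or 1.48%. With TMM library sizes, which correct for library composition, 48 genes were lower and 122 higher (the latter counted after the data were seen), so the lower share of these genes was 28.2% in place of 15.9%.

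RNA came from the spinal cord at segments L4 to L6, on the injured side, of adult male Sprague-Dawley rats, and each of the 5 groups held 3 libraries. In chronic constriction injury (CCI) 4 loose ligatures were tied around the left sciatic nerve at mid-thigh, and in the Sham group the nerve was exposed without ligatures. The CCI group was ligated and not given a preparation, and 3 further ligated groups received Yuan-Hu Zhi Tong Prescription (CCI+YZP, 10.8 g crude drug per kg) or the preparations the labels call YH (CCI+YH, 7.2 g) and BZ (CCI+BZ, 3.6 g) over 5 days, from postoperative day 6 to day 10. Tissue was taken on day 10. The doses differ between the treated groups, and the sources used here name no vehicle. Of the 7 rats in each ligated group 3 were sequenced, and the libraries are taken as separate rats.

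Loose constriction of a peripheral nerve is a widely used model of neuropathic pain. The lumbar cord receives the central endings of the injured sensory neurons, and its neurons, astrocytes, microglia and oligodendrocytes are all present in one extract. A lower level of a transcript in such an extract can come from fewer cells of a type or from less RNA per cell, and these cannot be told apart here. The count tables carry Ensembl identifiers, and the reference table used here pairs 0 of its 47357 genes with one, so 0 of the 29 members could be given a symbol. Known functions of the members, marker genes of the cord's cell types and sequences at the members' start sites are for that reason not given. Members are numbered 1 to 29 from the highest to the lowest ratio of lowest Sham to highest CCI library, and 3 of them are also named by identifier.

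Library totals ran from 15093246 to 22757104 counts, and single members held 6 to 3325 counts in a library. In 8 of the 29 members some library held under 100 counts, so counting error alone is appreciable there. The share of all counts taken by the 3 most abundant genes was 8.49% to 9.60% in Sham and 6.78% to 7.55% in CCI, and it reached from 6.76% to 9.18% among treated libraries, both in CCI+BZ. CPM divides by the library total, so this share moves every member's CPM slightly. The TMM factor was at most 0.063 from no correction on the log2 scale.

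Most members differed modestly between Sham and CCI. The ratio of the lowest Sham to the highest CCI library ran from 1.26 to 3.58, with a median of 1.33, and it was at least 1.5 in 4 members and under 1.3 in 12. The members nearest the threshold had ratios of 1.256, 1.258 and 1.26, and the nearest genes outside it had 1.245, 1.241 and 1.238. Group means were 24.2% to 90.2% lower in CCI than in Sham, with a median of 39.4%, and 10 members were lower by at least 50%. Lowest Sham levels ran from 6.06 to 156 CPM with a median of 21.0, and 6 members lay under 10 CPM and 9 at 50 CPM or more. The heat map of members by library shows the CCI columns uniformly lower, and treated columns in which nearby members go different ways.

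**Figure D1:**
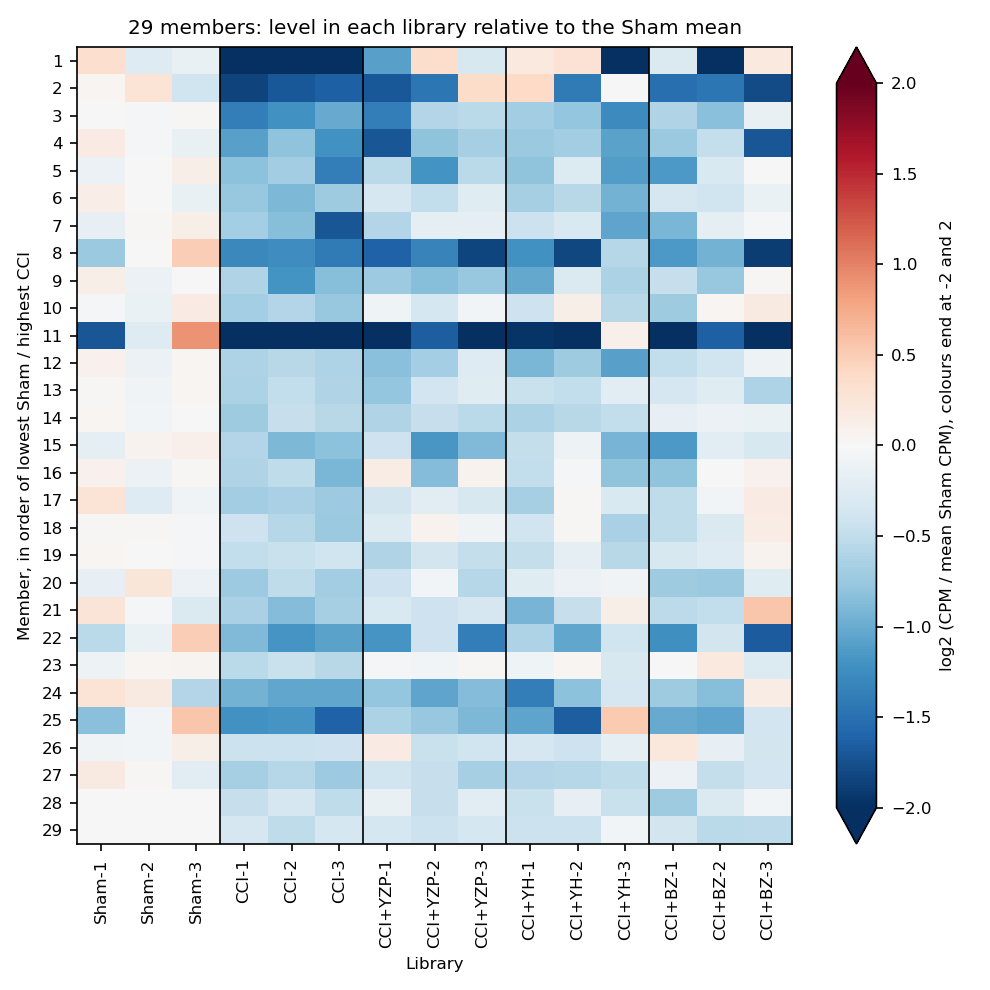
Level of each of the 29 members (rows, numbered by falling ratio of lowest Sham to highest CCI library) in each of the 15 libraries (columns), as log2 of CPM over the member's mean Sham CPM; colours end at -2 and 2. CCI columns are lower in every row by the choice of members, while treated columns differ from row to row and between libraries of the same group.

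The members were not equally steady within Sham. In 18 of them the highest Sham library was less than 25% above the lowest. In 4 members, numbers 8, 11, 22 and 25, it was at least 2 times the lowest, which is 13.8% of the members against 1.05% of the genes in the window. The same Sham libraries chose the members, so nothing is read from this excess. Member 11 had 17.7, 48.4 and 107 CPM in the 3 Sham libraries, 12.9, 12.6 and 7.89 CPM in CCI, and 7.86 to 62.0 CPM in treated libraries. Member 25 had 64.3, 111 and 169 CPM in Sham and 49.4, 50.4 and 37.5 CPM in CCI. Sham replicate 3 was the highest Sham library in all 4 of these members, so their Sham means lean on that rat. Member 8 had 30.6 CPM in its lowest Sham library and member 22 had 21.0 CPM, against 21.5 and 16.4 CPM in the highest CCI library. Without Sham replicate 3 the rule would keep 72 genes. All 29 members are among them, which was fixed in advance, since dropping a library only loosens the rule.

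The same 4 members also moved together in part in treated rats. Over the 9 treated libraries the mean correlation between pairs of them on log2 CPM was 0.62, with a range from 0.14 to 0.92, and all pairs share these libraries and their scaling. CCI+YH replicate 3 was the highest treated library in 3 of the 4, at 34.6 CPM in member 8, 62.0 CPM in member 11 and 165 CPM in member 25. In member 22 CCI+BZ replicate 2 was highest, at 23.7 CPM, with CCI+YH replicate 3 at 23.2 CPM. The lowest treated libraries of members 8 and 22 were those of CCI+BZ replicate 3, at 13.7 and 9.64 CPM, which lie below every CCI library. In that library member 11 was at 8.54 CPM, within its CCI range. Member 25 went the other way there, at 88.2 CPM, above each of its CCI libraries. The 4 were chosen for their spread in Sham after the values were seen, and the correlation over treated libraries is a description.

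To compare members of different abundance, each treated library was placed on a scale where 0 is the mean of the CCI libraries and 100 the mean of the Sham libraries, on log2 CPM. Because the rule picked members that were low in CCI and high in Sham, a library without any treatment effect is likely to fall between the ends, and a place above 0 is not a sign of treatment. The median place over the 29 members was 40.7, 28.7 and 44.2 in the CCI+YZP libraries, 21.6, 35.7 and 23.7 in CCI+YH and 26.8, 42.1 and 83.1 in CCI+BZ. The group means were 37.9 ± 8.13 for CCI+YZP, 27.0 ± 7.64 for CCI+YH and 50.6 ± 29.1 for CCI+BZ (SD, n = 3 each). The 3 groups overlapped, and CCI+BZ replicate 3 alone stood apart, so that without it the CCI+BZ mean was 34.4.

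**Figure D2:**
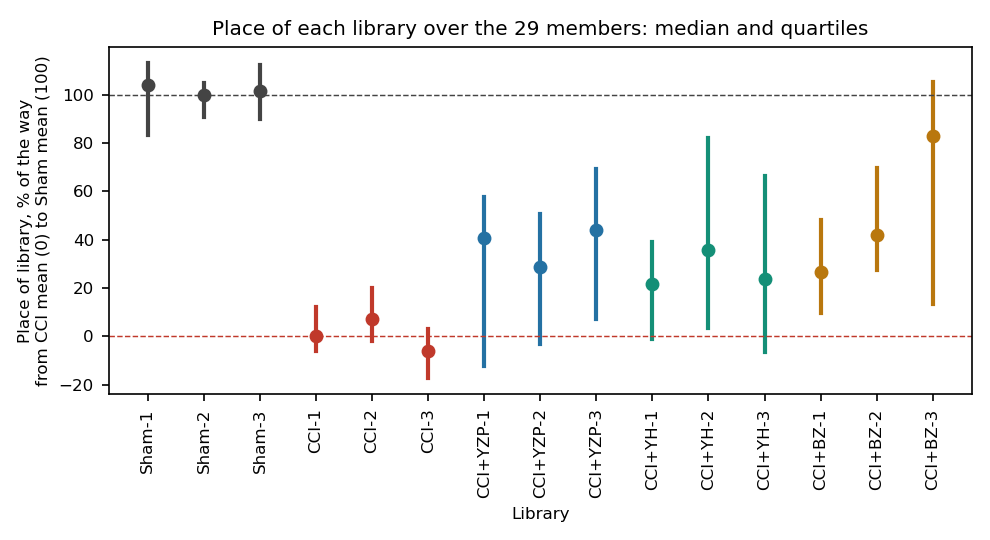
Place of each of the 15 libraries between the CCI mean (0, lower dashed line) and the Sham mean (100, upper dashed line) on log2 CPM; points are medians over the 29 members and bars run from the lower to the upper quartile. Treated libraries have medians from 21.6 to 83.1, with CCI+BZ replicate 3 the highest.

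Counted by member, the treated libraries fell on both sides of the gap that the rule had opened. Of 261 values of 29 members in 9 treated libraries, 90 (34.5%) lay at or under the member's highest CCI library, 112 (42.9%) in the gap, and 59 (22.6%) at or above its lowest Sham library. CCI+BZ replicate 3 had 14 members at or above the lowest Sham library, and the other treated libraries had 3 to 8. CCI+BZ replicate 2 had only 4 members at or under the highest CCI library, against 7 to 14 in the others.

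Every CCI+YZP library was above every CCI library in 9 members, every CCI+YH library in 4 and every CCI+BZ library in 12. Over all 10325 genes in the window the shares were 6.52%, 3.61% and 4.5%. Every CCI+YZP library was below every Sham library in 17 members, every CCI+YH library in 14 and every CCI+BZ library in 10, where the shares over the window were 5.53%, 6.61% and 4.29%. These comparisons use the Sham or CCI libraries that chose the members, so nothing is read from the excess over the window. A count of this kind can only stay the same or rise when a library is dropped. For CCI+BZ the size of the rise differed between rats. Without CCI+BZ replicate 1 the members above CCI numbered 19, and without CCI+BZ replicate 3 those below Sham numbered 21. In CCI+YZP 14 members were above CCI when replicate 2 was dropped. In CCI+YH it was 7, 10 and 12 when its own replicates 1, 2 and 3 were dropped in turn, and 10 without CCI replicate 2.

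Members differed in how many of their treated libraries lay above the highest CCI library. Member 23 was the only one above its highest CCI library in all 9 treated libraries, with 7.38, 8.12 and 8.14 CPM in Sham, 5.40, 5.77 and 5.39 CPM in CCI, and 6.33 to 8.98 CPM in treated rats. In 7 of the 9 it reached the Sham range. Member 29, the last inside the threshold, had 73.2, 74.2 and 73.0 CPM in Sham and 58.1, 51.6 and 57.3 CPM in CCI, and 8 of its 9 treated libraries, from 50.3 to 57.8 CPM, lay at or under the highest CCI library. The exception was CCI+YH replicate 3 at 70.7 CPM. In 6 members no treated library reached the lowest Sham library. These counts over all 9 treated libraries use the Sham and CCI libraries that chose the members. Their shares over the window were not computed, so nothing is read from them. The median place over treated libraries ran from -15.1 for member 12 to 96.3 for member 16, was under 0 in 3 members and was 50 or more in 9.

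Over the 9 treated libraries the median member varied more than the median gene in the window. The highest treated library was 2.02 times the lowest in the median member and 1.29 times in the median gene of the window. It was at least 4 times the lowest in 4 members (13.8%), numbers 1, 2, 11 and 25, against 0.678% of the genes in the window. In 5 members it was under 1.5 times. A rule that asks for a gap between rats can favour genes that vary between rats, so nothing is read from the excess over the window.

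The member with the largest ratio, ENSRNOG00000050827 (member 1), was close to an on or off gene. It stood at 24.4, 16.3 and 17.5 CPM in Sham and at 0.835, 4.55 and 0.341 CPM in CCI, where the lowest library held 6 counts. The CCI+YZP libraries held 9.16, 24.8 and 15.5 CPM, the CCI+YH libraries 22.2, 23.6 and 1.05 CPM, and the CCI+BZ libraries 15.9, 1.88 and 22.1 CPM. CCI+YH and CCI+BZ each contained 1 rat as low as the CCI rats and 2 rats near the Sham range, and no CCI+YZP rat was as low. The treated libraries thus ran over a 23.5-fold range, the widest of the 29.

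ENSRNOG00000001747 (member 2) also took either a high or a low level, in other rats. It stood at 22.8, 26.8 and 16.7 CPM in Sham and at 6.15, 6.82 and 7.10 CPM in CCI. The CCI+YZP libraries held 6.86, 8.11 and 28.4 CPM, the CCI+YH libraries 29.2, 8.30 and 22.0 CPM, and the CCI+BZ libraries 7.77, 8.10 and 6.43 CPM. Of the 9 treated rats 3 were in the Sham range or above, none of them in CCI+BZ, and 6 were between 6.43 and 8.30 CPM. With high and low rats in the same group, its difference between CCI+YH and CCI+BZ, 1.40 on the log2 scale (SE 0.491), did not pass the adjustment (edgeR quasi-likelihood adjusted p = 0.779).

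**Figure D3:**
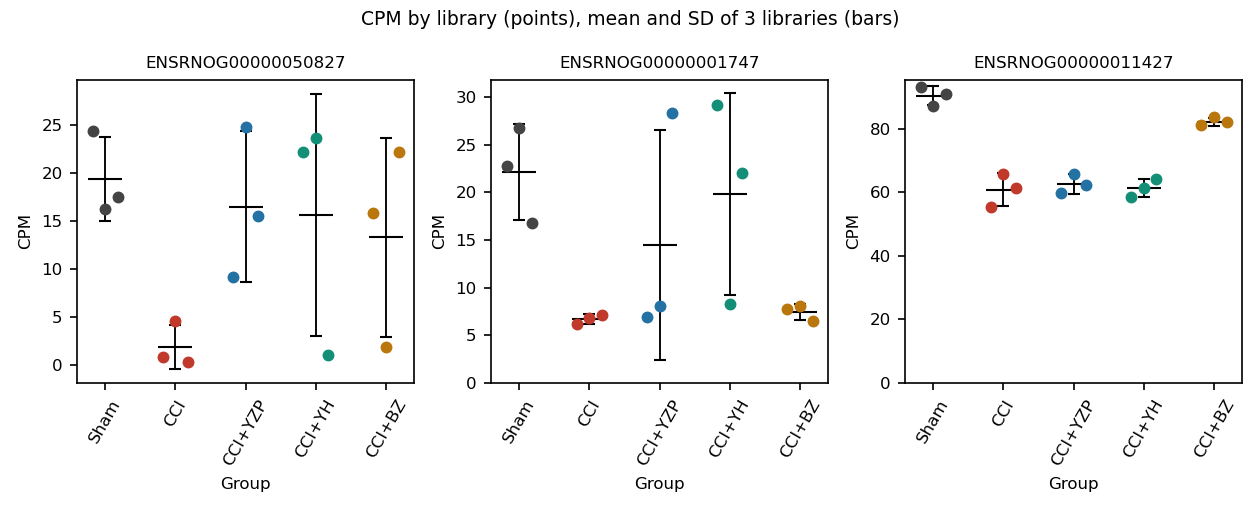
CPM of members 1, 2 and 14 in each of the 15 libraries (points) by group, with the mean and SD of 3 libraries (bars). Members 1 and 2 take high and low values within treated groups, while member 14 is at 81.0 to 83.5 CPM in the CCI+BZ libraries and at 58.4 to 65.7 CPM in those of CCI+YZP and CCI+YH.

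Comparisons between the treated groups set no library that chose the members against another, and they were tested with edgeR's quasi-likelihood fit over 16522 genes, which kept all 29 members, with Benjamini-Hochberg adjustment over all of them. The Sham and CCI libraries did enter the shared estimate of the spread in that fit. In a fit of only the 9 treated libraries, added after the data were seen, edgeR called 0 members in each of the 3 comparisons, with 6, 3 and 0 at an unadjusted p under 0.05 for CCI+YH against CCI+BZ, CCI+YZP against CCI+BZ and CCI+YZP against CCI+YH. With all 15 libraries in the fit, 1 member passed between CCI+YH and CCI+BZ at an adjusted p under 0.05, against 0.0424% of all genes tested, and it was lower in CCI+YH, as were 0.0121% of all genes. Between CCI+YZP and CCI+BZ edgeR called 0 members (2 at an unadjusted p under 0.05) against 0.0182% of all genes, while DESeq2 called 1 member, against 0.139% of all genes. Between CCI+YZP and CCI+YH edgeR called 0 members, with 1 at an unadjusted p under 0.05, where 0% of all genes passed, and DESeq2 called 0, where 0.0121% of all genes passed. The prescription and its parts were given at different doses, so these are differences between treatments as given.

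The member that passed was ENSRNOG00000011427 (member 14). It stood at 93.1, 87.1 and 90.9 CPM in Sham and at 55.3, 65.6 and 61.2 CPM in CCI. It was at 58.4, 61.4 and 64.3 CPM in CCI+YH and at 81.0, 83.5 and 82.1 CPM in CCI+BZ, so every CCI+BZ library was above every CCI+YH library and below every Sham library. The log2 difference of CCI+YH from CCI+BZ was -0.42 (SE 0.0668, 95% interval -0.57 to -0.28, edgeR adjusted p = 0.0473). The CCI+YZP libraries were at 59.6, 65.7 and 62.3 CPM, and their difference from CCI+BZ was -0.41 (SE 0.0668, 95% interval -0.55 to -0.27, edgeR adjusted p = 0.0934). CCI+YZP differed from CCI+YH by 0.014 on the log2 scale, with a 95% interval of -0.13 to 0.16. Its SD within CCI+BZ was 1.27 CPM, against 5.16 CPM in CCI.

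The call between CCI+YH and CCI+BZ was close to the threshold. It was lost in 13 of the 15 fits that left out a library, all but those without CCI replicate 1 or CCI replicate 2, with adjusted p up to 0.295 without CCI+YH replicate 1. It was also lost in limma voom (adjusted p = 0.0839) in a fit of the 2 groups alone (0.239) and in the fit of the 9 treated libraries (0.102), and DESeq2, which called 0.236% of all genes, gave 2.83e-05. The log2 difference itself ran from -0.46 to -0.39 over the 24 alternative fits and thresholds run. Most of these compared the same CCI+YH and CCI+BZ libraries, so little movement was possible in them. The ends of the range came from the fits without CCI+BZ replicate 1 (-0.46) and without CCI+YH replicate 1 (-0.39).

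At an unadjusted p under 0.05, 6 of the 29 members (20.7%) differed between CCI+YH and CCI+BZ, 4 lower and 2 higher in CCI+YH, beside 5.44% of all genes tested. For CCI+YZP against CCI+BZ it was 2 (6.90%) beside 5.1%, and for CCI+YZP against CCI+YH 1 (3.45%) beside 3.56%. Both shares for CCI+YZP moved with single rats. Against CCI+BZ, dropping CCI+BZ replicate 1 raised the count to 5 members (17.2%), beside 6.68% of all genes, and dropping CCI+BZ replicate 2 also gave 5, beside 4.76%. Against CCI+YH, dropping CCI+YH replicate 2 gave 4 members (13.8%), beside 4.89%. The 2 members higher in CCI+YH were numbers 2 and 20. Member 20 had 12.5, 13.5 and 14.0 CPM in CCI+YH and 9.04, 8.77 and 12.5 CPM in CCI+BZ. The 4 lower were numbers 6, 12, 14 and 27. Member 12 had 3.51, 4.06 and 3.10 CPM in CCI+YH, all under the 4.31 to 4.50 CPM of CCI, and 4.71, 5.01 and 6.18 CPM in CCI+BZ. Over all 29 members the median log2 difference of CCI+YH from CCI+BZ was -0.15, beside -0.0017 over all genes, and without CCI+BZ replicate 3 it was -0.0043. Apart from member 14 none of these passed the adjustment.

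The members did not vary as one block in treated rats. The mean correlation over their 406 pairs was 0.075 on the 9 treated libraries, beside 0.0015 over all genes in the window, and 63 pairs reached 0.6 while 21 were at -0.6 or below. Such pairs were not counted over the window, so it is not known whether these counts are unusual. A group of 10 members (numbers 5, 6, 7, 10, 12, 15, 16, 17, 18 and 28) followed the first principal component of all other genes, scored so that Sham is positive. This component held 20.8% of the variance, with Sham libraries at 22.5 to 28.6 and CCI libraries at -30.8 to -8.99. Each of the 10 correlated with it at 0.65 to 0.97 over the 9 treated libraries. A correlation of at least 0.6 was found in 34.5% of the members beside 15.2% of the genes in the window, and one of -0.6 or below in 2 members (numbers 8 and 11) beside 12.4%. The component was computed with the Sham and CCI libraries included, and the difference between those groups shaped it. The rule chose the members on that same difference, so nothing is read from these shares beside those of the window.

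Member 10 shows this pattern at a high count. It had 113, 107 and 130 CPM in Sham and 73.0, 77.3 and 68.7 CPM in CCI. The treated libraries were at 110, 90.9 and 112 CPM (CCI+YZP), 87.5, 126 and 79.3 CPM (CCI+YH) and 71.0, 119 and 132 CPM (CCI+BZ). Both extremes of the treated rats, one within the CCI range and one above every Sham library, were thus in CCI+BZ. Member 16 had 25.3 to 28.96 CPM in Sham and 14.6 to 19.2 CPM in CCI. Its treated libraries were at 30.5, 14.98 and 28.9 CPM (CCI+YZP), 19.5, 26.9 and 15.8 CPM (CCI+YH) and 15.7, 27.5 and 29.1 CPM (CCI+BZ), each within or near one of those ranges.

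For these 10 members together the median place was 50.5, 17.3 and 63.3 in the CCI+YZP libraries, 21.6, 80.3 and -14.1 in CCI+YH and 3.53, 70.5 and 98.8 in CCI+BZ. CCI+YH and CCI+BZ each ranged over most of the scale, and CCI+YZP over its middle. The 10 were picked on these treated libraries, so their places are a description. Among treated libraries CCI+BZ replicate 3 was the highest in 8 of the 10. Over the other 19 members the places ran from 13.1 in CCI+YZP replicate 1 to 61.0 in CCI+YH replicate 3. CCI+YH replicate 3 was therefore the lowest treated library for the first 10 and the highest for the other 19. The share of counts in the 3 most abundant genes was 9.18% in CCI+BZ replicate 3, 9.09% in CCI+YH replicate 2 and 6.76% in CCI+BZ replicate 1. In CCI+YH replicate 3, the lowest treated library for the 10 members, it was 7.38%, above the 7.02% of CCI+YZP replicate 2. The share thus followed the places of the 10 members only in part, and its part in their levels was not tested.

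**Figure D4:**
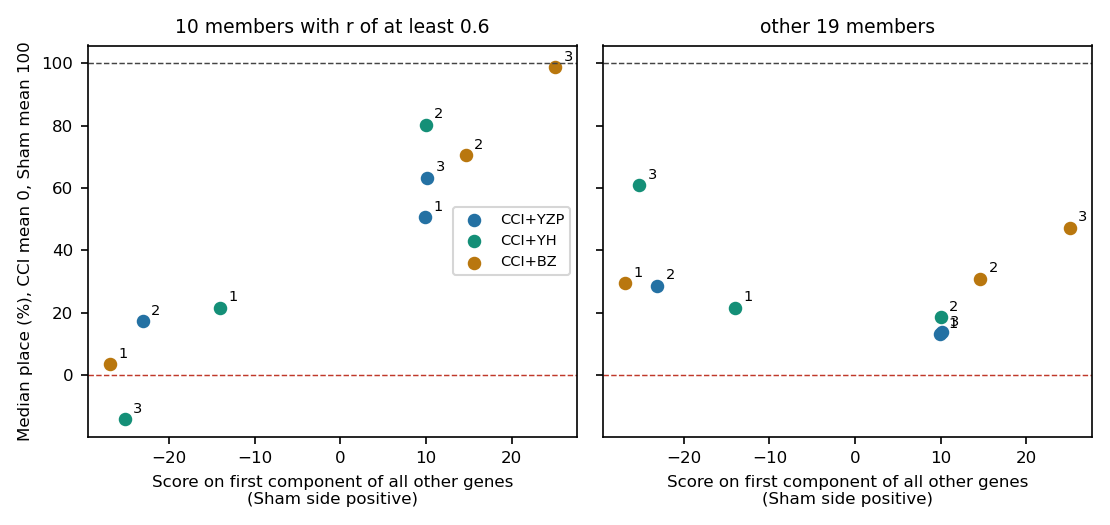
Median place of each of the 9 treated libraries (0 is the CCI mean, 100 the Sham mean) against its score on the first principal component of all genes other than the 29 members; the left panel shows the 10 members that correlate with the component at 0.6 or more and the right panel the other 19. Numbers beside points are replicate numbers. The 10 range from -14.1 to 98.8 along the component, and the other 19 stay between 13.1 and 61.0.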

How the data were processed

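Per the labels' protocols, Trizol RNA went into NEBNext Ultra RNA libraries. The authors deposited raw counts, as whole numbers, in 1 table per library, with 34202 rows. The submitters' processing notes name rn4 and DESeq2 1.16.1, without roles. Aligner, counter, annotation and strand setting: not given in the sources used here. Overlapping genes and near-identical copies may therefore share counts. Members were found on CPM from column totals. Tests used edgeR 4.0.16 in R 4.3.3 on all 15 libraries, with filterByExpr at a minimum count of 10, TMM scaling, 1 coefficient per group and 10 residual degrees of freedom, and were tested on simulated data. Alternatives were DESeq2 1.42.0, limma 3.58.1 with voom, other scalings, filters and thresholds, a replicate block and leaving out each library. The component used log2 CPM with a prior count of 2. Libraries of one group differed by 7.06 to 27.0 chi-square per gene, so none was a repeat. The members and lists were chosen with earlier results of these data known. Named were the members with the 2 largest ratios and any called between treated groups. Further members are given by number only, chosen after their values were seen. The planned limit was at most 2 identifiers in each direction where identifiers have no symbol. All members were lower in CCI than in Sham, so also printing the identifier of member 14 went beyond that limit. Because identifiers have no symbol, 37 gene and marker lists and a promoter motif search could not be used.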

Additional observations from a re-analysis of the deposited data

Results flagged for a closer look

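Member 14 (ENSRNOG00000011427) was called between CCI+YH and CCI+BZ with all 15 libraries in the fit, at -0.42 on the log2 scale (edgeR adjusted p = 0.0473, range over alternatives 2.83e-05 to 0.295). All 3 CCI+BZ libraries were above all 3 CCI+YH libraries. The Sham and CCI libraries, which chose the members, entered the estimate of the spread in that fit. The call was lost in the fit of only the 9 treated libraries (edgeR adjusted p = 0.102). In member 12 every CCI+BZ library was above the CCI mean and every CCI+YH library below it, with group means 0.57 apart on the log2 scale. That contrast of signs was not itself tested, and the difference between the 2 groups missed the threshold (edgeR adjusted p = 0.661). Member 12 held only 53 to 141 counts in a library, so counting error is appreciable in these levels, those of CCI included. With 3 libraries in each group, no search for outlying libraries was made.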

How the results depend on the processing

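The number of members depended on the rule's settings. With TMM library sizes 48 genes passed, all 29 members among them. At a ratio of 1.5 it was 4 genes and at a ratio of 1.0 it was 860. With a Sham or CCI library left out it was 39 to 75. All 29 members stayed in at the ratio of 1.0 and with a library left out. Apart from the 200 CPM limit this was fixed in advance, since both changes only loosen the rule. For CCI+YH against CCI+BZ the count of called members was 1, and 0 with the replicate block, with only the 2 groups in the fit, with only the 9 treated libraries (chosen after seeing the data) and in limma voom, and 0 to 1 with a library left out. For CCI+YZP against CCI+BZ it was 0, and 1 at an adjusted p under 0.1 and in DESeq2. For CCI+YZP against CCI+YH it was 0 under every alternative run. Same-numbered libraries of the treated groups did not deviate together, with correlations of -0.15 to 0.13. Sham and CCI libraries were not part of that check, so whether the numbers pair the rats was not settled. With the replicate block member 14 had an edgeR adjusted p of 0.0608 between CCI+YH and CCI+BZ. In that fit 2 genes in place of 7 were called over all genes between these groups. The mean place of CCI+YH was 35.1 over the 4 members at a ratio of 1.5. With a library left out mean places ran from 27.7 to 42.4 for CCI+YZP, from 22.6 to 29.7 for CCI+YH and from 34.4 to 62.6 for CCI+BZ. Members above every CCI library then numbered 9 to 14, 4 to 12 and 12 to 19 in that order, and members below every Sham library 17 to 23, 14 to 20 and 10 to 21. Leaving out a library cannot lower these counts. With TMM library sizes 7 members were above every CCI library in CCI+YH. Lists for CCI against Sham were not run, since no identifier had a symbol.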
